A study of Mus musculus with 13 samples.

Results

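The 9 genes of B cells and lymphoid follicles described here (9 of the 19505 genes with a named probe set) were followed in colon and ileum of mice given vancomycin or no antibiotic. They are Cd79a, Cd79b, Ms4a1, Pax5, Cr2, Cd22, Fcer2a, Cxcr5 and Cxcl13. Each was chosen by name and found by its gene symbol in the platform annotation, and each had 1 probe set. All mice were female, of the FVB strain, and bore a mammary carcinoma with human HER2. Treated mice drank vancomycin at 200 mg/L from 4 weeks of age to the end of the experiment, and the other mice received no antibiotic. Tissue was taken at 9 weeks, which the labels do not specify as age or as treatment time, with tumours of 150 mm3. The 4 groups are vancomycin colon (3 arrays, numbered 11, 13 and 14), no-antibiotic colon (4 arrays, 1, 2, 3 and 5), vancomycin ileum (3 arrays, 11, 13 and 14) and no-antibiotic ileum (3 arrays, 1, 2 and 3). The labels do not say which stretch of colon or ileum was cut or whether Peyer's patches were kept or removed.

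B cells carry an antigen receptor whose signalling subunits are CD79A and CD79B, and Pax5 is the transcription factor that holds their identity. In the gut they gather in follicles: in Peyer's patches, which lie at intervals along the ileum, in the patches of the colon and in small isolated follicles scattered through both. Follicular stromal cells secrete the chemokine CXCL13, B cells follow it through its receptor CXCR5, and follicular dendritic cells hold complement-coated antigen for them through CR2, which B cells carry as well. A piece of gut wall that includes a follicle therefore holds many B cells, while a neighbouring piece may hold few.

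The start regions of a receptor subunit, a complement receptor and the follicle chemokine are shown because these 3 genes stand for the B cell, for the cells that hold antigen in the follicle and for the signal that draws B cells there, and because they moved together from piece to piece. The sequences are RefSeq's, on GRCm38.p6, from 250 bases before to 50 bases after the gene start. The windows are chr7:24897247-24897546 (plus strand) for Cd79a, chr1:195176670-195176969 (minus strand) for Cr2 and chr5:95956689-95956988 (plus strand) for Cxcl13. Capitals mark every match to the motifs listed after the sequences, on either strand.
Cd79a: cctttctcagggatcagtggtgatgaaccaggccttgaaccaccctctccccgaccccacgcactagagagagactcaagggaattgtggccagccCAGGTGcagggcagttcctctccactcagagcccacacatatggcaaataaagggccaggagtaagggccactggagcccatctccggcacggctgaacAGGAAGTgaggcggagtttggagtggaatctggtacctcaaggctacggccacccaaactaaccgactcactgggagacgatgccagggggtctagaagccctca
Cr2: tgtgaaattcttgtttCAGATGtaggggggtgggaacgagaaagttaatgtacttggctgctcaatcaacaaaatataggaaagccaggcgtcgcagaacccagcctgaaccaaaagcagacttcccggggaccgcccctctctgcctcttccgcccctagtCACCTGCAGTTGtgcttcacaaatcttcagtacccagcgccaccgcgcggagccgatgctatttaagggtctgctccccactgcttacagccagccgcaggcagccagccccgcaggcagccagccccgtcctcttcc
Cxcl13: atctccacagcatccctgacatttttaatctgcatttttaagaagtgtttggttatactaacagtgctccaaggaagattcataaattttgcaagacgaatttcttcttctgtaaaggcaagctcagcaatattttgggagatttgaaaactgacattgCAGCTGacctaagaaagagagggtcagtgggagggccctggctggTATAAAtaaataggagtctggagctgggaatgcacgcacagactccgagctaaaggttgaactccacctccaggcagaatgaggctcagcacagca

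Windows were given for 6 of the 9 genes, and the other 3, Cd79b, Ms4a1 and Cxcr5, are only named. Fcer2a had several windows, so the 6 genes had 8. On both strands, the octamer ATTTGCAT stood in the windows of 0 of these 6 genes and in 1.74% of all 32851 mouse windows. The EBF motif CCCNNGGG was in Cd22 (1 of the 8 windows, against 13.7% of all windows). The ETS motif AGGAAGT was in Cd79a, at base 55 before the start (1 of the 8, against 9.35% of all windows). The E-box CAGNTG was in 5 of the 6 genes (6 of the 8 windows, against 51.4% of all windows), with 3 matches in the Cr2 window, of which 2 adjoin. The TATA box TATAAA was in Cxcl13, at base 46 before the start, and in Fcer2a (2 of the 8 windows, against 13.6% of all windows). A match describes the letters of the window and is not a binding site, and no match says only that those letters are not in it.

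The values are RMA log2 values of 1-colour Affymetrix arrays, and a difference of 1 nominally means a doubling. A probe set has its own brightness, so levels are compared between arrays and not between genes. Array medians were 7.98 to 8.14. The tissue labels fit the regional genes: Car1, a carbonic anhydrase of colonic epithelium, was 16.05 to 17.42 in the 7 colon arrays and 6.40 to 8.38 in the 6 ileum arrays, while Apoa1, an apolipoprotein of absorbing small intestine, was 5.12 to 6.81 in colon and 15.13 to 16.33 in ileum. The labels give no batch, date or cage and do not say that arrays came from separate mice, so p-values measure only the spread between these samples, which may be technical. One array stands apart in the genes described here, vancomycin ileum 11, and the ileum and vancomycin comparisons that rest on it are given with and without it. In bulk tissue, fewer cells of a type and less RNA per cell cannot be told apart.

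The B cell receptor subunits were far higher in vancomycin ileum 11 than in any other array. Cd79a read 9.05, 8.73 and 10.49 in vancomycin colon 11, 13 and 14, against 9.08, 10.16, 8.92 and 9.19 in no-antibiotic colon 1, 2, 3 and 5. In the ileum it read 11.56, 8.71 and 8.20 in vancomycin arrays 11, 13 and 14, against 9.32, 8.82 and 9.43 in no-antibiotic arrays 1, 2 and 3. The vancomycin ilea thus held both the highest and the lowest Cd79a values of the 13 arrays, and the no-antibiotic ilea lay between them. Its partner Cd79b repeated this order, with 7.96, 8.33 and 9.12 in vancomycin colon, against 8.25, 8.74, 8.32 and 8.37 in no-antibiotic colon. It read 11.24, 8.28 and 7.76 in vancomycin ileum, against 8.16, 7.96 and 8.73 in no-antibiotic ileum. Vancomycin colon 14 and no-antibiotic colon 2 were the next highest for both subunits.

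The B cell surface proteins showed the same pieces at the top. Ms4a1, which encodes CD20, read 6.22, 6.28 and 7.02 in vancomycin colon, against 6.36, 7.26, 6.39 and 6.77 in no-antibiotic colon. In the ileum Ms4a1 read 8.03, 6.21 and 6.22 in vancomycin arrays, against 6.55, 6.37 and 6.48 in no-antibiotic arrays. Ms4a1 is the dimmest of the 9 probe sets (30.7% of named probe sets were dimmer), and its no-antibiotic ilea spanned only 0.18. Cd22, an inhibitory co-receptor that dampens B cell receptor signals, read 7.05, 7.41 and 8.33 in vancomycin colon, against 7.63, 8.63, 7.30 and 7.50 in no-antibiotic colon. Its ileum values were 10.47, 7.41 and 6.37 in vancomycin arrays, against 7.62, 6.98 and 7.69 in no-antibiotic arrays. Cd22 had the widest range of the 9 genes in vancomycin ileum, 4.10. Fcer2a, the low-affinity IgE receptor CD23 of resting follicular B cells, read 7.48, 7.76 and 8.66 in vancomycin colon, against 7.93, 8.32, 7.62 and 7.88 in no-antibiotic colon. It read 8.93, 7.46 and 7.49 in vancomycin ileum, against 7.58, 7.39 and 7.45 in no-antibiotic ileum. Apart from array 11, the ilea of both treatments lay within 7.39 to 7.58 for Fcer2a.

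Pax5, the B cell identity factor, read 7.89, 7.31 and 8.72 in vancomycin colon, against 7.59, 8.13, 7.25 and 7.40 in no-antibiotic colon. In the ileum it read 10.75, 7.67 and 6.92 in vancomycin arrays, against 7.49, 6.83 and 8.07 in no-antibiotic arrays. Array 11 was again the top value, and the other vancomycin ilea fell inside the no-antibiotic range.

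The complement receptor and the chemokine pair followed the B cell genes. Cr2 read 9.49, 9.26 and 10.59 in vancomycin colon, against 9.28, 10.10, 8.75 and 9.11 in no-antibiotic colon. In the ileum Cr2 read 11.72, 8.94 and 8.11 in vancomycin arrays, against 8.66, 7.75 and 9.21 in no-antibiotic arrays. Groups of both tissues overlapped for Cr2, whichever treatment is taken. Cxcr5, the receptor that leads B cells into follicles, read 7.19, 7.15 and 7.77 in vancomycin colon, against 7.34, 7.73, 7.27 and 7.60 in no-antibiotic colon. It read 8.81, 7.49 and 7.07 in vancomycin ileum, against 7.10, 6.94 and 7.33 in no-antibiotic ileum. Cxcr5 had the narrowest range of the 9 genes in both colon groups. Its ligand Cxcl13 read 12.16, 12.18 and 13.29 in vancomycin colon, against 12.42, 12.86, 12.10 and 12.54 in no-antibiotic colon. The ilea had 14.24, 11.41 and 11.28 under vancomycin, against 11.42, 10.24 and 11.92 without antibiotic. All 7 colon arrays exceeded every ileum array except vancomycin ileum 11 for Cxcl13, the only one of the 9 genes with that split.

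**Figure D1:**
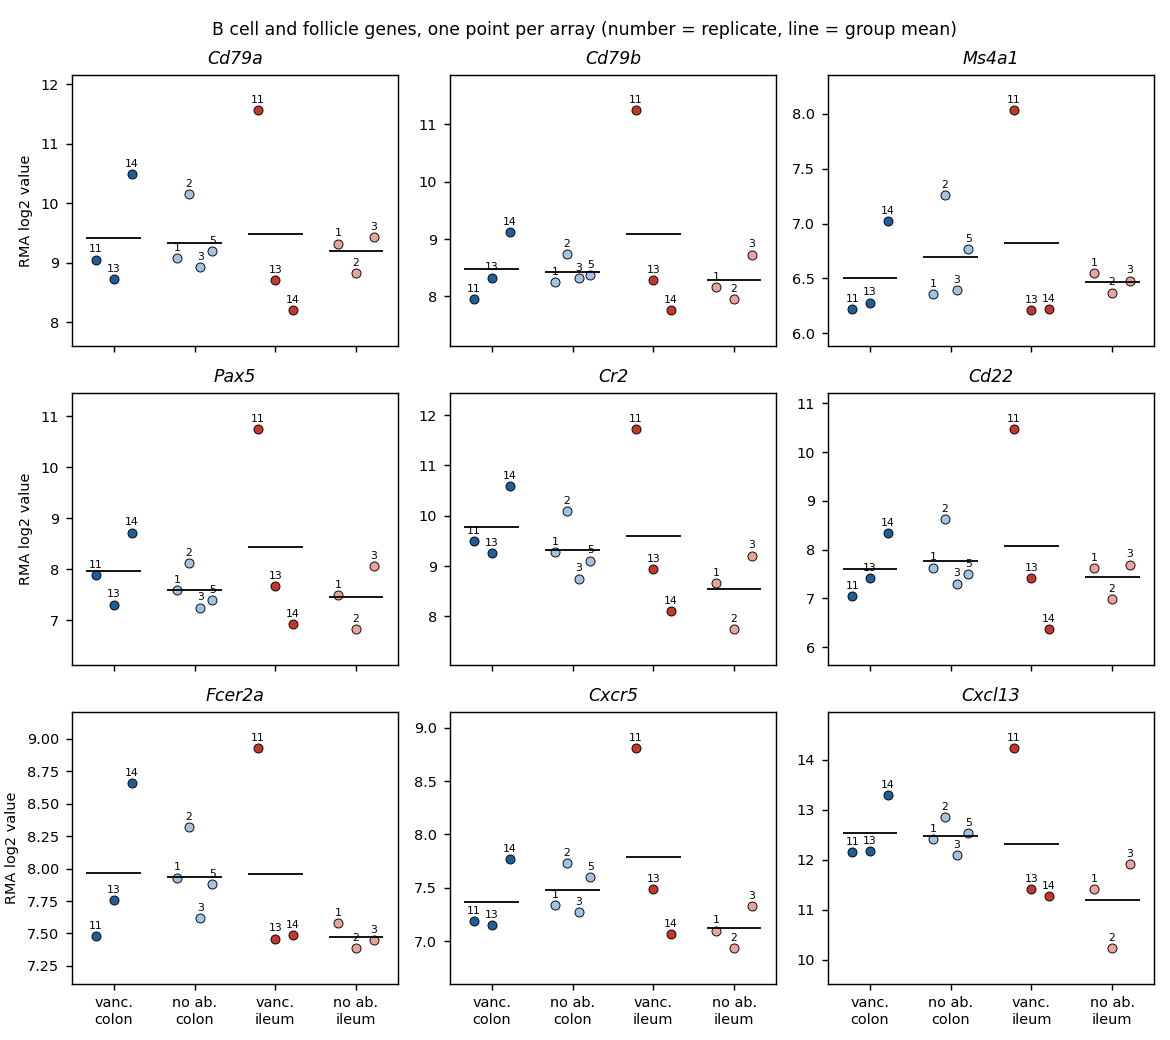
RMA log2 value (y axis) of each gene in every array, by group (x axis: vancomycin and no-antibiotic colon, vancomycin and no-antibiotic ileum). Points are arrays with their replicate number and lines are group means. Vancomycin ileum 11 is the highest point in all 9 panels, and vancomycin colon 14 and no-antibiotic colon 2 top their groups in all 9.

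Set in order by group mean, vancomycin ileum came highest for 6 genes and vancomycin colon for 3 (Cr2, Fcer2a and Cxcl13), and no-antibiotic ileum was lowest for all 9. Neighbours in that order overlapped for 8 of the 9 genes at every step. The exception was Fcer2a, whose no-antibiotic colon (7.94 ± 0.289, SD, n = 4) did not overlap no-antibiotic ileum (7.47 ± 0.0971, SD, n = 3). The vancomycin ileum means carried the largest SDs of the 4 groups for every gene, from 0.84 for Fcer2a to 2.13 for Cd22.

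The spread between pieces of the same group was the main feature of these genes. The median range within vancomycin ileum was 3.36 over the 9 genes, against 0.44 over all named probe sets, and 37 of the 19572 probe sets (0.189%) had a wider range. In these shares, the set of all probe sets holds the 9 genes themselves. In vancomycin colon the median range was 1.18, against 0.40 over all probe sets, of which 3.64% were wider. In no-antibiotic colon it was 0.88, against 0.49 over all probe sets, with 12.3% wider, and in no-antibiotic ileum 0.71, against 0.29, with 5.96% wider. In a group of 3 arrays, leaving out the outlying one must narrow the range of any gene, and ranges over all probe sets were not computed that way. The following values are therefore descriptions only. Without its array 14 the median range of vancomycin colon was 0.28, and without its array 2 that of no-antibiotic colon was 0.33. Without its array 11 that of vancomycin ileum was 0.51, and without its array 2 that of no-antibiotic ileum was 0.23. Whether the spread differed between treatments was not tested.

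The same array ranked at the top for all 9 genes in 3 of the 4 groups. Array 11 was highest of the vancomycin ilea for 9 of 9 genes, array 14 highest of the vancomycin colons for 9 of 9, and array 2 highest of the no-antibiotic colons for 9 of 9. In no-antibiotic ileum array 2 was lowest for 9 of 9, and array 3 was highest for 7. Over all 13 arrays, vancomycin ileum 11 ranked first for 9 genes, vancomycin colon 14 second for 7, and no-antibiotic colon 2 second for the other 2.

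Vancomycin ileum 11 exceeded the mean of the other vancomycin ilea by 3.11 for Cd79a, 3.22 for Cd79b, 3.46 for Pax5, 3.20 for Cr2 and 3.58 for Cd22, nominally 8.6-fold to 12-fold. For Cxcl13 the excess was 2.90 (7.44-fold). The smallest excesses were 1.82 for Ms4a1, 1.53 for Cxcr5 and 1.455 for Fcer2a. All 9 genes were thus at least 1 above the other pieces, as were 5.29% of all named probe sets, and 6 were at least 2 above, as were 0.797%. In vancomycin colon 14 the excess was smaller, with a median of 1.10 and 6 of 9 genes at least 1 above (0.603% of all probe sets). In no-antibiotic colon 2 the median was 0.72, with 3 of 9 at least 1 above (0.47%).

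**Figure D2:**
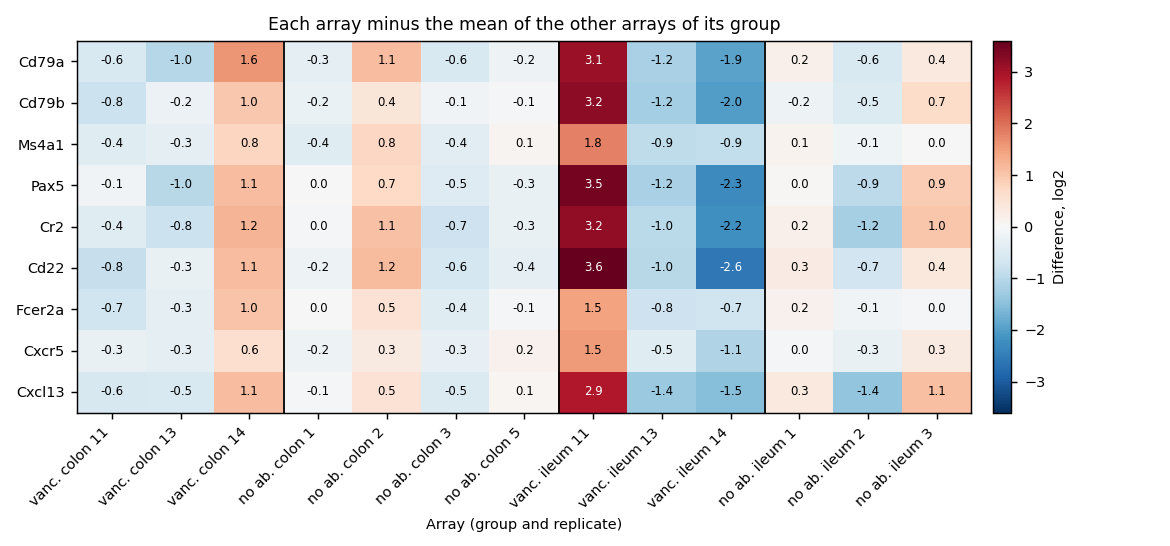
Each array's log2 value minus the mean of the other arrays of its group (colour and printed number), for the 9 genes (rows) and 13 arrays (columns, vertical lines between groups). Vancomycin ileum 11 is 1.455 to 3.58 above the other vancomycin ilea, vancomycin colon 14 is 0.60 to 1.60 above the other vancomycin colons, and no-antibiotic colon 2 is 0.33 to 1.15 above the other no-antibiotic colons.

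Further B cell genes rose and fell with the same pieces. A list of other B cell genes had 22 measured of 26, and in vancomycin ileum 11 all 22 were above the mean of the other vancomycin ilea, with a median of 2.06. Of these, 18 were at least 1 above, as were 5.29% of all named probe sets. The genes named from here to the end of this paragraph were chosen after their values were seen. Cd37, a tetraspanin of mature B cells, read 13.05 in array 11, against a mean of 8.64 in the other vancomycin ilea. Bank1, a B cell adaptor protein, was 3.55 higher, and Vpreb3, a protein of the B cell lineage, 3.29 higher. Among genes of follicle stroma and lymphoid chemokines (20 measured of 22), the median excess was 0.58, with 16 above 0 and 9 at least 1 above. The lowest were Tnfrsf1a at -0.615 and Ltbr at -0.36. Madcam1, the address molecule on vessels through which lymphocytes enter gut lymphoid tissue, read 9.95, against a mean of 7.14. Ltb, a lymphotoxin subunit needed for lymphoid organ structure, was 2.80 higher, Ccr6, a chemokine receptor of B cells and lymphoid tissue cells, 2.69 higher, and Ccl19, a T zone chemokine, 2.44 higher. Germinal centre genes (12 measured of 14) had a median excess of 0.64, with 9 above 0. Among the 4 at least 1 above were Rgs13 at 2.49, Mybl1 at 2.31 and Gcsam at 2.17, and the lowest were Fas at -0.55 and Gna13 at -0.48. M cell and follicle epithelium genes (10 measured) had a median of 0.25, with 8 above 0. The 3 at least 1 above were Aif1 at 1.525, Gp2, a receptor of mature M cells, at 1.43, and Tnfaip2 at 1.345. Others lay near 0, such as Tnfrsf11a at 0.055 and Ccl9 at 0.05, and the lowest was Pglyrp1 at -0.33.

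Markers of other tissue also stood higher in vancomycin ileum 11. Smooth muscle genes were above the other vancomycin ilea for 15 of 15, 10 of them by at least 1, with a median of 1.23. T cell genes were above for 15 of 16, with a median of 0.92. Epithelium genes were above for 2 of 15, with a median of -0.44. The mean level of the smooth muscle list ranged over 12.45 to 13.38 in vancomycin colon, 12.36 to 13.29 in no-antibiotic colon, 12.05 to 13.38 in vancomycin ileum and 11.83 to 12.05 in no-antibiotic ileum. For the T cell list the ranges were 7.33 to 7.76, 7.29 to 7.70, 7.96 to 8.94 and 8.58 to 8.92 in the same groups, and for the epithelium list 14.11 to 14.24, 14.27 to 14.43, 14.14 to 14.59 and 14.63 to 14.74. Lymphatic and lymph node genes had a median excess of 0.24 (8 of 10 above), plasma cell genes 0.38 (7 of 11), myeloid and dendritic cell genes 0.43 (11 of 15), and adipocyte genes 0.47 (7 of 9). The RMA scale has no 0, so no marker can be called absent. The part of these tissues in the result was not tested.

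In vancomycin colon 14 the other B cell genes were above the other vancomycin colons for 20 of 22, with a median of 0.45, while smooth muscle genes had a median of 0.09. T cell genes had a median of 0.39 there and adipocyte genes 0.64, and plasma cell genes were lower, with a median of -0.19. In no-antibiotic colon 2 the other B cell genes had a median of 0.51 (20 of 22 above), while smooth muscle genes had a median of -0.81 (1 of 15 above). T cell genes had a median of 0.28 in that piece (14 of 16 above), so that the T cell list, like the B cell lists, was above its group in all 3 pieces. The follicle lists had medians near 0 in no-antibiotic colon 2, at 0.03 for stroma and chemokine genes (11 of 20 above), -0.03 for germinal centre genes (5 of 12) and -0.015 for M cell genes (5 of 10). In vancomycin colon 14 these medians were 0.18 (14 of 20), 0.285 (9 of 12) and -0.185 (2 of 10). The part of these lists in the heights of the 9 genes was not tested.

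**Figure D3:**
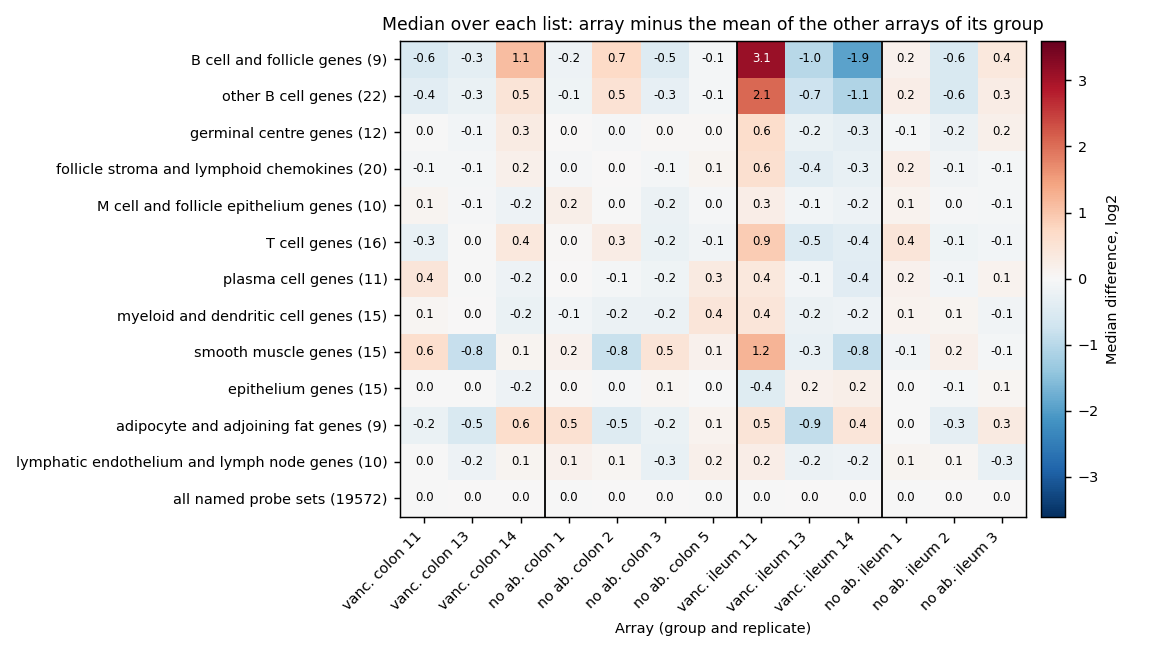
Median over each gene list (rows, number of genes in brackets) of an array's log2 value minus the mean of the other arrays of its group, for the 13 arrays (columns, vertical lines between groups). The B cell lists have their highest medians in vancomycin ileum 11 (3.11 and 2.06). The smooth muscle median is 1.23 in that array and -0.81 in no-antibiotic colon 2.

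In the ileum, vancomycin against no antibiotic gave higher means for all 9 genes (53.6% of all probe sets were higher), and the height rested on array 11. Changes ran from 0.30 for Cd79a to 1.12 for Cxcl13, with a median of 0.67, against 0.02 over all probe sets. No member passed an adjusted p of 0.05 in limma (105 of 19572 probe sets, 0.536%, did), and 0 had an unadjusted p under 0.05 (10.1% of all). With array weights, with only the 2 groups compared and with every other alternative, 0 passed as well. The groups overlapped for all 9 genes (16.9% of all probe sets did not overlap). Cxcl13 was 12.31 ± 1.67 under vancomycin and 11.19 ± 0.863 without antibiotic (SD, n = 3 each), a change of 1.12 ± 0.64 (SE, adjusted p = 0.579, limma), with a 95% interval of -0.26 to 2.49. Cr2 changed by 1.05 ± 0.71 (adjusted p = 0.642), Pax5 by 0.98 ± 0.72 (adjusted p = 0.668) and Cxcr5 by 0.67 ± 0.34 (adjusted p = 0.527, interval -0.06 to 1.39). These intervals include no change as well as a rise of nominally over 2-fold.

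Without vancomycin ileum 11, 3 of the 9 changes were above 0 and 6 below, with a median of -0.17. Cd79a then stood at -0.74 ± 0.45 (adjusted p = 0.624) in place of 0.30 ± 0.69 (adjusted p = 0.922), and Cd22 at -0.54 ± 0.43 (adjusted p = 0.726) in place of 0.65 ± 0.75 (adjusted p = 0.803). Cxcl13 stood at 0.15 ± 0.42 (adjusted p = 0.943) and Cr2 at -0.02 ± 0.47 (adjusted p = 0.995). Again 0 members passed, with 172 probe sets (0.879%) called in all. The other B cell genes went the same way, with 21 of 22 above 0 and a median of 0.54 with all arrays, and 6 of 22 above 0 and a median of -0.15 without array 11.

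**Figure D4:**
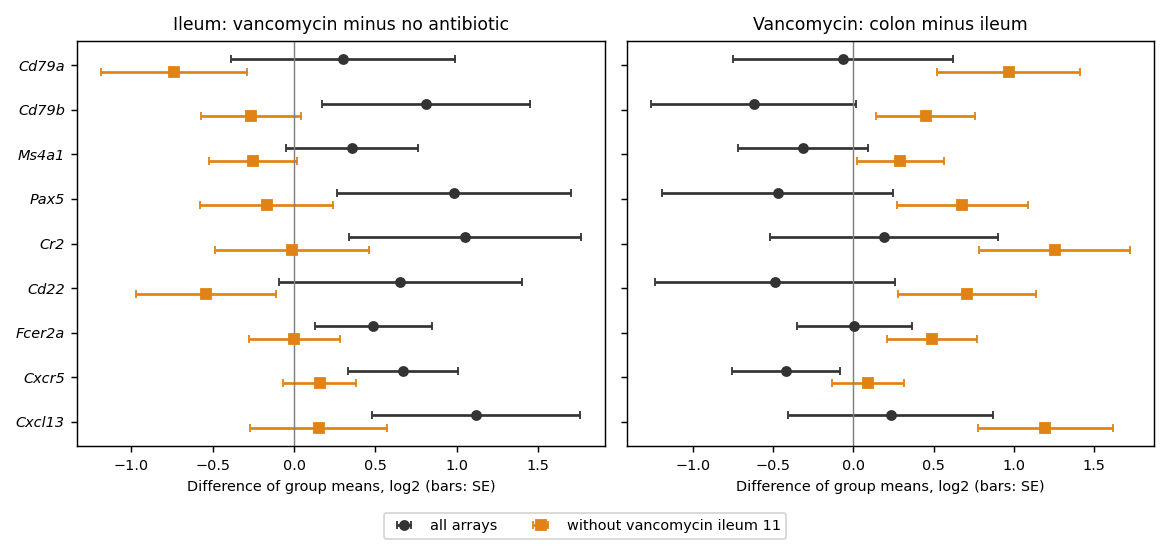
Difference of group means on the log2 scale (points) with its SE (bars) for the 9 genes (rows), with all arrays and without vancomycin ileum 11. In the left panel, vancomycin minus no antibiotic in ileum, all 9 are above 0 with all arrays and 3 without it. In the right panel, colon minus ileum under vancomycin, 3 are above 0 with all arrays and 9 without it.

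Among the follicle stroma and other B cell genes in the ileum, 1 passed the test. Tnfsf13b, which encodes the B cell survival factor BAFF, read 7.45, 7.28 and 7.23 under vancomycin, against 8.79, 7.79 and 8.42 without antibiotic. Its groups did not overlap, and it fell by 1.01 ± 0.20 (SE, adjusted p = 0.0451, limma), the only call among the 20 stroma and chemokine genes. The call was lost without vancomycin ileum 13 or 14 (adjusted p = 0.135 and 0.0999), without no-antibiotic ileum 1 or 3 (0.188 and 0.219) and with only the 2 groups compared (0.296). Ciita, the master regulator of MHC class II genes, read 8.98, 8.42 and 8.18 under vancomycin, against 9.82, 9.35 and 9.22 without antibiotic. Its change of -0.94 ± 0.20 had an adjusted p of 0.0633, and without array 11, which was the highest of its group here as well, it was -1.16 with an adjusted p of 0.00629. Btla, an inhibitory receptor of lymphocytes, differed by 0.63 ± 0.21 (adjusted p = 0.287) and Cd72, a B cell co-receptor, by 0.54 ± 0.25 (adjusted p = 0.502). Of the other B cell genes 0 of 22 passed, and 2 had an unadjusted p under 0.05. Germinal centre genes had 0 of 12 called and a median of -0.01, and M cell genes 0 of 10 and a median of 0.09.

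Markers of other tissue are given beside the ileum comparison with and without array 11. Of all probe sets, 45.8% were below 0 and 0.536% were called with all arrays, and 46.3% and 0.879% without array 11. Smooth muscle genes had 14 of 15 above 0 with a median of 0.78, and without array 11 they had 13 of 15 above 0 with a median of 0.37, with 0 called in both. With all arrays, 7 of these 15 were higher without overlap and 0 lower (8.57% and 8.34% of all probe sets). T cell genes had 9 of 16 below 0, a median of -0.40 and 1 call, and without array 11 they had 14 of 16 below 0, a median of -0.66 and 4 calls, all lower. The 1 call was Cd6, a T cell surface receptor, at -1.19 (adjusted p = 0.0409). The call was kept without array 11, and it was lost without vancomycin ileum 13 or 14, without no-antibiotic ileum 1 or 3 and with only the 2 groups compared (adjusted p = 0.0999 to 0.227). Plasma cell genes had 10 of 11 below 0 in both fits, with 1 call with all arrays and 3 calls of other genes without array 11. The 1 call, Prdm1, which drives the plasma cell fate, was at -1.59 ± 0.31 (adjusted p = 0.0397), and it was lost without array 11 (-1.295, adjusted p = 0.0703). It was also lost without vancomycin ileum 13, without each no-antibiotic ileum and with only the 2 groups compared (adjusted p = 0.0562 to 0.216). The plasma cell list's mean level was 8.54 to 9.08 under vancomycin and 9.28 to 9.37 without antibiotic. The part of these markers in the values of the 9 genes was not tested.

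In the colon, vancomycin against no antibiotic left the 9 genes with small differences. They ran from -0.19 for Ms4a1 to 0.47 for Cr2, with 6 above 0 (53% of all probe sets were), 3 below and a median of 0.05, against 0.02 over all probe sets. These directions were not stable: array weights put Cd79a, Cd79b, Fcer2a and Cxcl13 below 0 (median of the 9, -0.0718), and without vancomycin colon 14 the median was -0.315, with Cd79a at -0.45 and Cxcl13 at -0.31. By limma 0 of 9 passed (2 of 19572 probe sets, 0.0102%, did), 0 had an unadjusted p under 0.05 (15.9% of all), and with array weights or any other alternative 0 passed. All 9 overlapped between the groups (12.3% of probe sets did not). Cxcl13 was 12.54 ± 0.647 under vancomycin (SD, n = 3) and 12.48 ± 0.314 without antibiotic (SD, n = 4), a difference of 0.06 with a 95% interval of -1.22 to 1.35. Cr2 differed by 0.47 ± 0.67 (adjusted p = 0.77) and Pax5 by 0.38 ± 0.67 (adjusted p = 0.822). With intervals this wide, a change of nominally 2-fold in either direction was not excluded for Cd79a (-1.29 to 1.464), Cd79b (-1.24 to 1.34) or Cxcl13, while the interval of Cxcr5 was -0.79 to 0.56.

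The lists around them in the colon gave 0 calls. Other B cell genes had 14 above 0 and 8 below with a median of 0.12. Blk, a kinase of B cell receptor signalling, differed by 0.44 ± 0.30 (adjusted p = 0.494), and its groups did not overlap. Fcgr2b, the inhibitory Fc receptor of B cells and follicular dendritic cells, differed by -0.91 ± 0.33 (adjusted p = 0.225), and its groups did not overlap either. Of the 20 stroma and chemokine genes, 2 were higher and 3 lower without overlap (6.72% and 5.57% of all probe sets). Gp2 of M cells differed by 0.93 ± 0.40 (adjusted p = 0.284). Plasma cell genes were below 0 for 11 of 11 (46.9% of all probe sets were) with a median of -0.41. Of the 11, 5 had an unadjusted p under 0.05 (15.9% of all), 5 were lower without overlap (5.57% of all) and 0 were called. Their mean level was 8.30 to 8.87 under vancomycin and 8.97 to 9.35 without antibiotic.

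The difference between the tissues in the vancomycin effect, ileum minus colon, was above 0 for all 9 genes (50.6% of all probe sets) with a median of 0.60. By limma 0 passed (37 of 19572 probe sets, 0.189%, did), 0 at an unadjusted p under 0.05 (8.01% of all) and 0 with array weights. It was 1.05 ± 0.88 for Cxcl13 (adjusted p = 0.817) and 0.78 ± 0.46 for Cxcr5 (adjusted p = 0.719). Without vancomycin ileum 11, 2 were above 0 and 7 below, with a median of -0.31.

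Colon against ileum without antibiotic gave higher colon means for all 9 genes (54.6% of all probe sets), with the largest difference in Cxcl13. Cxcl13 was 12.48 ± 0.314 in colon (SD, n = 4) and 11.19 ± 0.863 in ileum (SD, n = 3), and the groups did not overlap. Its difference was 1.29 ± 0.60 (SE, unadjusted p = 0.05002, adjusted p = 0.164, limma), with a 95% interval of -0.000153 to 2.573. Fcer2a, the other gene without overlap, was 0.46 ± 0.34 higher (adjusted p = 0.408). Without overlap, 18.1% of all probe sets were higher in colon, a share close to these 2 of 9. By limma 0 of 9 passed, while 20.5% of all probe sets did, and 0 had an unadjusted p under 0.05 (30.5% of all), with Cxcl13 just above it. In the fit without vancomycin ileum 11, 1 of the 9 was under 0.05 in this comparison (33% of all). Cxcl13 passed with array weights (1.41, adjusted p = 0.027) and with only the 2 groups compared (1.29, adjusted p = 0.0155). Without no-antibiotic ileum 2, the lowest array for Cxcl13, its difference was 0.81 (adjusted p = 0.498). The median over the 9 genes was 0.34, against 0.04 over all probe sets, and it was 0.18 without no-antibiotic ileum 2 and 0.05 without no-antibiotic colon 2.

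Under vancomycin the same tissue comparison depended on array 11. With all arrays 3 of 9 genes were above 0 (54.9% of all probe sets) and 6 below, with a median of -0.31, and 0 passed (15.1% of all probe sets did), 0 with array weights and 0 at an unadjusted p under 0.05 (26.7% of all). Without array 11 all 9 were above 0, with a median of 0.68, and 0 passed (20.2% of all). Cr2 then stood at 1.26 ± 0.47 (adjusted p = 0.0806), Cxcl13 at 1.20 ± 0.42 (adjusted p = 0.06) and Cd79a at 0.97 ± 0.45, these 3 having an unadjusted p under 0.05 (30.9% of all). This fit kept vancomycin colon 14, the highest of its group for 9 of 9 genes, and a fit without both arrays was not run.

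Some genes of the lists around the 9, named by smallest p, showed larger tissue differences. Colon minus ileum medians without antibiotic were 0.14 for other B cell genes and 0.17 for stroma genes, against 0.34 for the 9. Under vancomycin they were -0.25 and -0.05, against -0.31. Without antibiotic 1 of 22 other B cell genes was called higher and 1 lower, and of 20 stroma genes 1 and 2 (11% and 9.59% of all). Under vancomycin these counts were 1 and 0 of 22 and 1 and 1 of 20 (7.45% and 7.67%). Blnk, the adaptor that links the B cell receptor to downstream signalling, read 11.92, 12.25 and 12.44 in vancomycin colon, against 10.52, 9.21 and 9.03 in vancomycin ileum. Without antibiotic it read 12.01, 12.13, 11.76 and 12.19 in colon, against 9.60, 9.03 and 9.58 in ileum. Blnk was 2.62 ± 0.31 higher in colon under vancomycin (adjusted p = 4.50e-05) and 2.62 ± 0.29 higher without antibiotic (adjusted p = 1.65e-05), the only rise called among the 22 other B cell genes in either comparison. Among the no-antibiotic colons its highest value was in array 5 and not in array 2. Without antibiotic Ciita fell by 1.13 ± 0.19 in colon relative to ileum (adjusted p = 0.000594) and Tnfsf13b by 1.03 ± 0.19 (adjusted p = 0.00134). Tnfrsf1a, a tumour necrosis factor receptor used by follicle stroma and many other cells, fell by 1.37 ± 0.21 under vancomycin (adjusted p = 0.000314) and by 1.22 ± 0.19 without antibiotic (adjusted p = 0.000356). Fcgr2b was 1.06 ± 0.33 higher in colon without antibiotic (adjusted p = 0.0358), and Ccl20, the CCR6 ligand of follicle epithelium, 1.81 ± 0.38 higher in colon under vancomycin (adjusted p = 0.00465).

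Smooth muscle and fat differed between the tissues as well. Smooth muscle genes were above 0 in colon minus ileum for 11 of 15 under vancomycin, with a median of 0.38. Of the 15, 1 was called higher, near the share of 7.45% of all probe sets. Without array 11 they were above 0 for 13 of 15, with a median of 0.71 and 5 called higher (20.2% of all probe sets were called in either direction). Without antibiotic they were above 0 for 15 of 15, 10 called higher (11% of all probe sets were), with a median of 1.19. Adipocyte genes had 7 of 9 lower and 2 higher in colon, all called, with and without vancomycin (15.1% and 20.5% of all probe sets were called in either direction). Their mean level was 8.12 to 9.25 in vancomycin colon, 8.34 to 9.35 in no-antibiotic colon, 10.19 to 11.34 in vancomycin ileum and 10.33 to 10.74 in no-antibiotic ileum. T cell genes had 9 of 16 called lower in colon without antibiotic (9.59% of all probe sets were) and 5 of 16 under vancomycin (7.67%), or 4 of 16 without array 11. The part of these in the tissue differences of the 9 genes was not tested.

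Colon and ileum arrays that carry the same number did not share their height in these genes. The labels do not say that a number marks one mouse. Averaged over the 9 genes, vancomycin number 11 read 8.28 in colon and 10.64 in ileum, number 13 read 8.27 and 8.18, and number 14 read 9.33 and 7.71. Without antibiotic, number 1 read 8.43 in colon and 8.21 in ileum, number 2 read 9.10 and 7.70, and number 3 read 8.21 and 8.48. The 2 highest colon arrays thus bore the numbers of the 2 lowest ileum arrays, and the highest ileum array bore the number of a low colon array. Colon minus ileum within a number ran from -2.36 for number 11 to 1.62 for number 14.

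**Figure D5:**
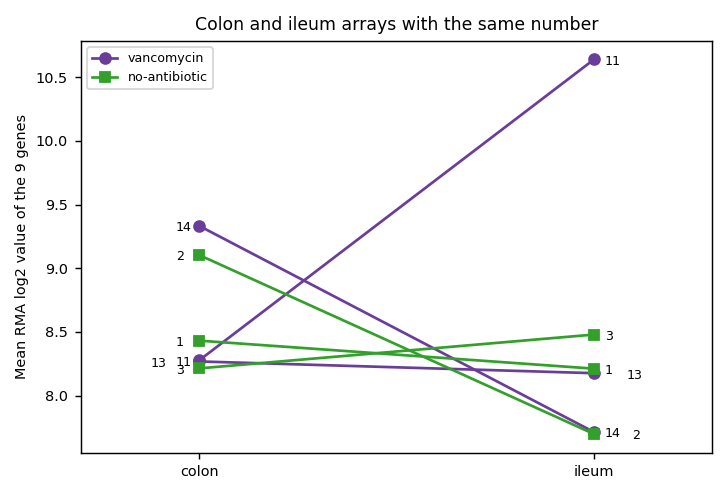
Mean RMA log2 value of the 9 genes (y axis) in the colon and ileum arrays that share a number (lines, with the number at each end), for vancomycin and no-antibiotic samples. Numbers 14 and 2 are the highest in colon (9.33 and 9.10) and the lowest in ileum (7.71 and 7.70), and number 11 is 8.28 in colon and 10.64 in ileum.

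Over the 13 arrays, the genes whose centred values lay closest to the mean profile of the 9 were Fcrla and Fcrl1 (Fc receptor-like genes of B cells), Fcmr (the IgM Fc receptor), Ly86 (which encodes MD-1, the partner of CD180), Ly6d (a surface protein of early B cells and some epithelia), Spib and Mef2c (transcription factors active in B cells) and the predicted gene Gm1966. Their root mean square differences were 0.17 for Fcrla to 0.27 for Fcrl1, against a median of 0.80 over the 19496 other genes. The 9 genes themselves lay at 0.24 (Cd79a) to 0.41 (Cxcl13) from their mean. Ly6d, for example, read 9.21, 9.23 and 10.45 in vancomycin colon, against 9.60, 10.55, 9.34 and 9.46 in no-antibiotic colon. Its ileum values were 12.05, 9.10 and 8.52 under vancomycin, against 9.43, 8.45 and 9.16 without antibiotic. The closest to Cxcl13 alone were Cr2 (0.31), Ly6d (0.39), Clu (0.39), which encodes clusterin and is abundant in follicular dendritic cells, and Fcamr (0.42), a receptor for IgA and IgM also found on follicular dendritic cells. These likenesses are descriptions over 13 arrays, in which the height of array 11 weighs heavily.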

How the data were processed

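Total RNA of colon and ileum, extracted with a miRNeasy kit and labelled with biotin per the labels' protocols, was hybridised to Affymetrix mouse arrays. The submitters' processing notes name 2 tools, Affymetrix Expression Console 1.4.1.46 and RMA, with no role or order. The deposited table holds the authors' RMA log2 values for each probe set. RMA corrects background, quantile-normalizes and summarizes probes, so array totals say nothing about the amount of RNA. Values above 16, the log2 ceiling of a scanner, occurred in 437 of 28846 probe sets, so differences are on the deposited scale.

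Symbols came from the platform annotation, which paired 19572 probe sets with 1 symbol, 0 with several and 9274 with none. All were matched through Entrez identifiers to RefSeq (GRCm38.p6) with 0 changes. They represent 19505 genes. One limma fit (version 3.58.1 in R 4.3.3, unfiltered, with moderated variances from eBayes) took all 13 arrays and 4 group means, with 5 contrasts and Benjamini-Hochberg adjustment over 19572 probe sets at 0.05. Errors of changes are SEs of that fit, and intervals cover 95%. The number of arrays limits the precision. Excesses of an array over its group, ranges and profile distances are descriptions without a test. The 9 genes and 11 further lists (155 of 170 entries measured) were chosen with earlier results of these data known. Named are the 9 genes, up to 3 genes of a list with the smallest p in a comparison, the 8 genes nearest to the mean profile and the 4 nearest to Cxcl13, and others only where stated. The script was tested on simulated data. Alternatives were array weights, only the 2 groups compared, leaving out the dimmest 33.3% of probe sets, median-centred arrays, eBayes with trend and robust, a replicate block and leaving out each array.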

Additional observations from a re-analysis of the deposited data

How the results depend on the processing

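Array weights called 1012 probe sets in the ileum (105 in the fit reported), 38 in the colon (2), 191 for the tissue difference of the effect (37) and 4903 for colon minus ileum under vancomycin (2961). With only the 2 groups compared the counts were 20 in the ileum, 0 in the colon and 1875 for colon minus ileum under vancomycin. In the colon, leaving out the dimmest 33.3% of probe sets gave 1 and median-centring 0. For colon minus ileum without antibiotic, 1 of the 9 genes (Cxcl13) passed with array weights and 1 (Cxcl13) with only the 2 groups compared. Array weights turned the sign of Cd79a (-0.34) and Ms4a1 (-0.13) in the ileum, of Cd79a (-0.11), Cd79b (-0.00685), Fcer2a (-0.0718) and Cxcl13 (-0.0489) in the colon, and of Cd79a (-0.23) for the tissue difference. They also turned that of Cd79a (0.52), Cd79b (0.0482), Ms4a1 (0.15), Pax5 (0.13) and Cd22 (0.10) for colon minus ileum under vancomycin. The cause was not tested. Deviations of colon and ileum arrays with the same number correlated at 0.107 to 0.236 for the 3 vancomycin numbers and at -0.0162 to 0.0754 for the 3 no-antibiotic numbers. Since not every pair was over 0.1 and no label says that a number marks a mouse, the arrays were not treated as paired. With the replicate block (consensus correlation 0.0975) the counts were 104, 2, 43, 4389 and 3313 over the 5 comparisons, and 23 for the tissue difference with a fixed block. No call among the 9 genes changed. Leaving out 1 array at a time, counts ran from 40 to 172 in the ileum, 0 (without no-antibiotic colon 2) to 217 (without no-antibiotic colon 3) in the colon and 12 to 84 for the tissue difference. For vancomycin minus no antibiotic in the colon, Cd79a ran from -0.45 to 0.43, Cd79b from -0.275 to 0.305, Cd22 from -0.535 to 0.12, Fcer2a from -0.32 to 0.27 and Cxcl13 from -0.31 to 0.255. In the ileum, Cd79a ran from -0.735 to 0.945, Cd79b from -0.26 to 1.48, Ms4a1 from -0.25 to 0.66, Pax5 from -0.17 to 1.75, Cr2 from -0.015 to 1.79 and Cd22 from -0.54 to 1.51. For the tissue difference of the effect, Cd79a ran from -0.82 to 0.86, Cd79b from -0.31 to 1.43, Ms4a1 from -0.0633 to 0.85, Pax5 from -0.55 to 1.37, Cr2 from -0.485 to 1.32, Cd22 from -0.37 to 1.68 and Fcer2a from -0.0275 to 0.80. For colon minus ileum under vancomycin, Cd79a ran from -0.71 to 0.97, Cd79b from -1.29 to 0.45, Ms4a1 from -0.62 to 0.29, Pax5 from -1.24 to 0.68, Cr2 from -0.55 to 1.255, Cd22 from -1.34 to 0.71, Fcer2a from -0.34 to 0.49, Cxcr5 from -0.78 to 0.09 and Cxcl13 from -0.28 to 1.20. For the same without antibiotic, Cd79a ran from -0.13 to 0.29, Cd79b from -0.025 to 0.36 and Pax5 from -0.19 to 0.43. Of these vancomycin effects, the lowest ileum values came without array 11 and the lowest colon values without vancomycin colon 14. Median ranges within groups ran from 0.28 to 1.13 in vancomycin colon, 0.33 to 0.88 in no-antibiotic colon, 0.51 to 3.36 in vancomycin ileum and 0.23 to 0.71 in no-antibiotic ileum. The planned mean over several probe sets was not run, because each gene has 1. The dim Ms4a1 probe set limits what its small range shows.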
